A study of Mus musculus with 6 samples.

Results

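The 10 genes described here are members of the Notch pathway in whole testes of juvenile mice: the receptors Notch1, Notch2, Notch3 and Notch4, the ligands Jag1, Jag2 and Dll4, and the target genes Hes1, Hey1 and Heyl. They were taken by symbol from a table of 55487 gene identifiers, and all 10 were found and tested. Polyadenylated RNA was sequenced from testes of different mice at postnatal day 19. One group of 3 animals is labelled control, with no further detail of its genotype, and the other group of 3 is labelled dsfb, which by the title of the series is homozygous for SFB alleles of Hormad1 and Hormad2, genes of the meiotic chromosome axis. Whole testes were used, so each library mixes germ cells with Sertoli, Leydig, peritubular, vascular and immune cells, and a lower share of cells of a type cannot be told apart from less RNA per cell.

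Notch is a signalling route between touching cells. A Jagged or Delta-like ligand on the surface of a neighbouring cell pulls on the receptor, proteases including gamma-secretase release its intracellular part, and that part enters the nucleus and binds RBPJ to switch on genes such as Hes1 and Hey1, which encode transcriptional repressors. In the mouse testis Jagged ligands on germ cells are known to act on Notch receptors of Sertoli cells, where HES1 and HEY1 repress Gdnf and Cyp26b1, while DLL4 and NOTCH4 are best known from endothelium and NOTCH3 from the mural cells of blood vessels.

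The libraries held 15.3 to 27.7 M counted reads, and each dsfb library was shallower than each control library. All 10 listed markers of pachytene spermatocytes (mid to late stages) were called lower, their summed level going from 7652 to 9971 CPM (counts relative to library size, with library sizes scaled by TMM, edgeR's trimmed mean method) in control to 205 to 229 CPM in dsfb. All 12 Sertoli markers rose, from 2996 to 3866 CPM in control to 6977 to 7352 CPM in dsfb, with a median log2 fold change of 1.01. Of 10 spermatogonia markers 7 rose and 1 fell (median log2 0.74). The sum of these 10 went from 679 to 876 CPM in control to 405 to 444 CPM in dsfb. The marker that fell, Dmrtb1, was named after its values were seen and supplied most of the control sum. It was at 431 to 709 CPM in control and 40.4 to 53.9 CPM in dsfb, and a sum without it was not tried. Of 8 macrophage markers 6 rose and 0 fell by edgeR and 0 by DESeq2 (median log2 0.83). Of 7 peritubular myoid markers 4 rose and 0 fell by edgeR (median log2 0.86), and DESeq2 called 1 lower. Control replicate 3 stood apart from the other controls: its summed spermatid markers were at 848 CPM, against 154 and 175 CPM in replicates 1 and 2 and 8.2 to 9.9 CPM in dsfb. Hormad2 fell by 0.96 on the log2 scale (SE 0.14, edgeR adjusted p = 0.000757), and Hormad1 was at 446, 486 and 209 CPM in control and at 217, 246 and 243 CPM in dsfb (log2 -0.69, SE 0.28, edgeR adjusted p = 0.0597, or log2 -1.02 with an adjusted p of 1.57e-10 without control replicate 3). The counts cover whole genes and do not check these genotypes.

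With TMM scaling 8 of the 10 Notch genes were higher in the dsfb testes and none was lower, but 0 were higher when the libraries were scaled to their Sertoli markers. By edgeR's quasi-likelihood test 0 members had an unadjusted p under 0.05 for a lower level, and DESeq2 also called 8 higher and 0 lower, where it called 26.9% of all tested genes higher and 37.1% lower. Over all 19826 genes tested, 30.7% were called higher and 36.2% lower at an edgeR adjusted p under 0.05. The 8 rises lay between 1.5-fold and 2.39-fold, and the median log2 fold change of the 10 genes was 0.90, against 0.02 over all tested genes. The same 8 genes had groups that did not overlap, all 3 dsfb libraries above all 3 controls, as had 36.2% of tested genes. The number of members called higher was 8 without each of the 6 libraries in turn.

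**Figure D1:**
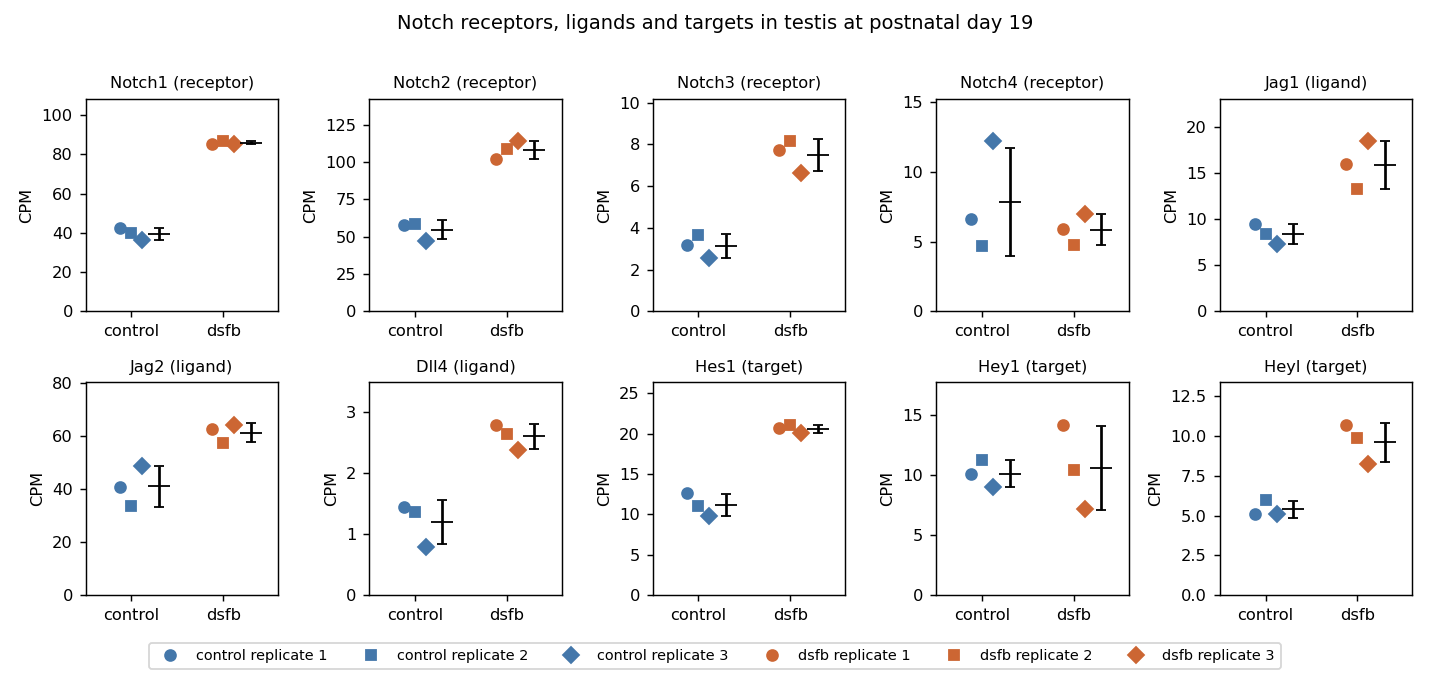
Level of each Notch gene in CPM on TMM-scaled library sizes (vertical axes start at 0), with 1 point per library, the marker shape giving the replicate number, and the mean with SD of n = 3 beside each group. All dsfb points lie above all control points except for Notch4, where control replicate 3 is highest at 12.2 CPM, and Hey1, where the dsfb points spread from 7.18 to 14.2 CPM; on Sertoli-scaled libraries the 8 separated genes did not pass the test.

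Of the 4 receptors 3 rose with TMM scaling. Notch1 (chromosome 2, 26457903 to 26516663, minus strand, mm10), a receptor known from Sertoli cells and germ cells, was measured at 42.5, 40.1 and 36.3 CPM in the controls and at 85.4, 86.7 and 85.5 CPM in the dsfb testes (here and below in the order of replicates 1, 2 and 3). The dsfb animals were nearly alike and lay well above every control. Its log2 fold change was 1.12 (SE 0.09, edgeR adjusted p = 3.38e-05), or 2.17-fold. Notch1 shares 7.5% of its exonic bases with 0610009E02Rik on the opposite strand, a gene with 52 to 106 reads in control and 9 to 19 in dsfb, against 783 to 971 and 1512 to 1682 reads for Notch1 itself.

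Notch2 (chromosome 3, 98013527 to 98150361, plus strand), the receptor with the highest level per exon length, was at 58.0, 58.8 and 47.4 CPM in control and at 102, 109 and 114 CPM in dsfb. Every dsfb library was far above the highest control. The log2 fold change was 0.98 (SE 0.11, edgeR adjusted p = 0.000159). Notch3 (chromosome 17, 32120820 to 32166852, minus strand), the receptor of vascular mural cells, was low, at 3.16, 3.68 and 2.55 CPM in control and 7.72, 8.15 and 6.64 CPM in dsfb. It had the largest log2 fold change of the 10 genes, 1.26, with a larger SE of 0.22 (edgeR adjusted p = 0.00176), and its value lay between 1.10 and 1.38 without each library in turn. The 8 listed markers of pericytes and vascular smooth muscle summed to 50.9 to 75.1 CPM in control and 114 to 120 CPM in dsfb, and 4 of them rose and 0 fell by edgeR (0 lower at an unadjusted p under 0.05 and by DESeq2). None was at 0 in all libraries, and their part in the result was not tested. Of these 8 markers 4 did not pass. Mcam, named after its values were seen, supplied most of the sum, at 31.6 to 44.4 CPM in control and 75.3 to 77.5 CPM in dsfb.

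Notch4 (chromosome 17, 34564268 to 34588503, plus strand), the endothelial receptor, was the receptor that did not pass. It was at 6.65, 4.71 and 12.2 CPM in control and at 5.89, 4.76 and 6.97 CPM in dsfb, so that the groups overlapped and control replicate 3 was the highest library. Its log2 fold change was -0.42 (SE 0.36, edgeR adjusted p = 0.331), and 0.03 without control replicate 3 (adjusted p = 0.919). That library also had the highest summed spermatid markers, and their part in the Notch4 value was not tested.

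**Figure D2:**
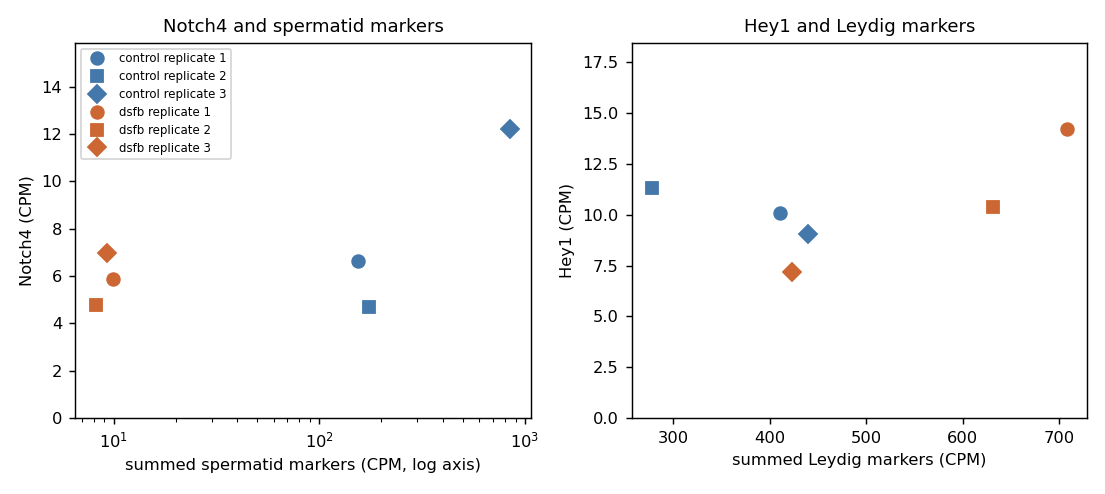
Notch4 (CPM) against the summed spermatid markers (CPM, log axis) on the left, and Hey1 (CPM) against the summed Leydig cell markers (CPM) on the right, with 1 point per library. Control replicate 3 is highest in both measures of the left panel (12.2 and 848 CPM), and dsfb replicate 1 in both measures of the right panel (14.2 and 708 CPM). Among the controls the order of Hey1 is the reverse of that of the Leydig cell markers.

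The stretches of 250 bases before the RefSeq starts of the receptors are shown because Notch1, Notch2 and Notch3 were higher with TMM scaling and Notch4 was not. They are RefSeq sequences of build GRCm38.p6, read 5' to 3' on the strand of the gene, at chr2:26503823-26504072 (minus strand) for Notch1, chr3:98013288-98013537 (plus) for Notch2, chr17:32166891-32167140 (minus) for Notch3 and chr17:34564045-34564294 (plus) for Notch4. The RefSeq starts differ from the ends of the GENCODE gene spans given above: the Notch1 window lies inside the GENCODE span of Notch1, and those of Notch2 and Notch4 reach slightly into theirs. Capitals mark the GC box GGGCGG or its reverse complement CCGCCC.
Notch1 promoter: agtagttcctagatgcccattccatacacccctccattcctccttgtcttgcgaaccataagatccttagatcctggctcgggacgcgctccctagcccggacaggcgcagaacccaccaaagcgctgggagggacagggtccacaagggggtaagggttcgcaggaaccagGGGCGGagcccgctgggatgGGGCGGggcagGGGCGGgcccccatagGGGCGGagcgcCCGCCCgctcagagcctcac
Notch2 promoter: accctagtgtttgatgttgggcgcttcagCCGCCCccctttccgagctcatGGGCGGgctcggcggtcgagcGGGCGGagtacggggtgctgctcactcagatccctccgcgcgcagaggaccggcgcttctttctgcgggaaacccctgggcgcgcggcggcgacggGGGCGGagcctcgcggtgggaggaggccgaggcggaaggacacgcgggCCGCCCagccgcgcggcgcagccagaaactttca
Notch3 promoter: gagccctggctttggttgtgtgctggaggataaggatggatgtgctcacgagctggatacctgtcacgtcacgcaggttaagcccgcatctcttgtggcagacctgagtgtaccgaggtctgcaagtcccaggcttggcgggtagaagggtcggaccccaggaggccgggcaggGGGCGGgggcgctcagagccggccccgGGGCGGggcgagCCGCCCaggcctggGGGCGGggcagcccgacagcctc
Notch4 promoter: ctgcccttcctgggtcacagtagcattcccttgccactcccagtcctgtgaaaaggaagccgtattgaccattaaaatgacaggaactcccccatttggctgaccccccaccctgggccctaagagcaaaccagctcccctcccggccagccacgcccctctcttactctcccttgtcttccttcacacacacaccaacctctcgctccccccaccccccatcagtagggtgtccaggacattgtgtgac
GC boxes, the binding motif of SP-family factors, occurred 5 times in the Notch1 window, 5 times in that of Notch2, 4 times in that of Notch3 and 0 times in that of Notch4. The G and C content of these windows was 66.0%, 72.0%, 68.8% and 58.4%. Promoter windows were found for 7 of the 10 members: those of Jag2 and Dll4 held 5 and 2 GC boxes, and that of Jag1, which rose with TMM scaling, held 0. Of 32851 such windows over all genes 32.7% held at least 1. The core of the RBPJ motif, TGGGAA on either strand, was in 0 of the 7 windows and in 21.6% of all windows. No sequence was matched for Hes1, Hey1 and Heyl. Whether these motifs have a part in the fold changes was not tested.

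All 3 ligands rose with TMM scaling. Jag2 (chromosome 12, 112907819 to 112929776, minus strand), the most abundant of these 3 ligands, was at 40.8, 33.5 and 48.7 CPM in control and at 62.5, 57.3 and 64.2 CPM in dsfb. The groups did not overlap, although control replicate 3 came close to the lowest dsfb library. Its log2 fold change of 0.58 (SE 0.14, edgeR adjusted p = 0.00818) was the smallest of the 8 rises. Jag1 (chromosome 2, 137081456 to 137116644, minus strand), the Jagged ligand linked to signalling from germ cells to Sertoli cells, was at 9.49, 8.42 and 7.32 CPM in control and at 16.0, 13.3 and 18.5 CPM in dsfb. All dsfb libraries were higher than all controls, with a wider spread among the dsfb animals (log2 0.92, SE 0.19, edgeR adjusted p = 0.00404).

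Dll4 (chromosome 2, 119325784 to 119335962, plus strand), the ligand of sprouting endothelium, was the rarest of the 10 genes, with 17 to 33 reads per control library and 44 to 55 per dsfb library. It was at 1.44, 1.36 and 0.788 CPM in control and at 2.79, 2.64 and 2.38 CPM in dsfb. The groups were apart, and the fold change of 1.11 on the log2 scale carried the largest SE among the rises (0.30, edgeR adjusted p = 0.0119). Of 15 endothelial markers 7 rose and 1 fell, their sum was 72.5 to 74.1 CPM in control and 99.2 to 118 CPM in dsfb, and none was at 0 in all libraries. The marker that fell, Sox17, was named after its values were seen. It was at 8.24 to 11.2 CPM in control and 1.49 to 2.75 CPM in dsfb. Robo4, also named after its values were seen, had the largest rise of the list (log2 2.18). It went from 2.41 to 3.63 CPM in control to 12.2 to 15.8 CPM in dsfb. A sum without Sox17 or Robo4 was not tried. With the libraries scaled to the sum of all 15 markers, Dll4 did not pass (log2 0.54, edgeR adjusted p = 0.169), and Notch4 passed as lower (log2 -1.0, adjusted p = 0.0377). That fit includes control replicate 3, the highest library for Notch4.

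Of the targets, Hes1 and Heyl rose with TMM scaling and Hey1 did not pass. Hes1 (chromosome 16, 30064384 to 30067796, plus strand), a repressor induced by Notch in many tissues, was at 12.6, 11.1 and 9.83 CPM in control and at 20.7, 21.1 and 20.1 CPM in dsfb. The dsfb libraries were nearly alike and all lay above the controls. Its log2 fold change was 0.89 (SE 0.15, edgeR adjusted p = 0.0015). Heyl (chromosome 4, 123233556 to 123249875, plus strand), a related repressor known from vascular smooth muscle, was at 5.07, 5.99 and 5.10 CPM in control and at 10.7, 9.87 and 8.26 CPM in dsfb, again without overlap (log2 0.83, SE 0.19, edgeR adjusted p = 0.00652).

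Hey1 (chromosome 3, 8663359 to 8667256, minus strand), the other repressor tied to Notch in Sertoli cells, was at 10.1, 11.3 and 9.04 CPM in control and at 14.2, 10.4 and 7.18 CPM in dsfb. The dsfb animals enclosed the whole control range. The log2 fold change was 0.06 (SE 0.27, edgeR adjusted p = 0.842), and -0.20 without dsfb replicate 1. The 7 Leydig cell markers summed to 708, 631 and 423 CPM in dsfb replicates 1, 2 and 3, the same order as Hey1, and to 411, 278 and 440 CPM in control, the reverse of the order of Hey1 there, and their part in the result was not tested. Of these markers 4 rose and 0 fell by edgeR (0 lower at an unadjusted p under 0.05 and by DESeq2), and none was at 0 in all libraries. The dsfb order was not shared by all of them, as seen after their values were known. Cyp17a1 had the widest range there (207, 179 and 40.3 CPM), and Insl3 had the opposite order (1.57, 2.12 and 3.24 CPM).

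Per exon length the highest mean was 18.9 times the lowest in control and 15.0 times in dsfb. In CPM per kilobase of merged exons, the control order was led by Jag2 at 5.89 ± 1.09, Hes1 at 5.48 ± 0.673 and Notch2 at 5.07 ± 0.590 (SD, n = 3), whose neighbouring ranges overlapped. Hey1 (3.11 ± 0.342) and Notch1 (2.79 ± 0.221) overlapped each other and lay apart from Notch2 above and Jag1 below. Jag1 (1.44 ± 0.186) was above Heyl (1.05 ± 0.102), which overlapped Notch4 (0.976 ± 0.485), and Notch3 (0.387 ± 0.0697) overlapped Dll4 (0.311 ± 0.0927) at the bottom.

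In dsfb the order per exon length was led by Hes1 at 10.1 ± 0.242 and Notch2 at 10 ± 0.574, which overlapped, followed by Jag2 at 8.81 ± 0.514 and Notch1 at 6.03 ± 0.0525, each apart from the next. Hey1 (3.25 ± 1.08) overlapped Jag1 (2.73 ± 0.443), and Heyl was at 1.88 ± 0.240. Notch3 (0.928 ± 0.0959), Notch4 (0.729 ± 0.137) and Dll4 (0.676 ± 0.0548) closed the order, each overlapping its neighbour.

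**Figure D3:**
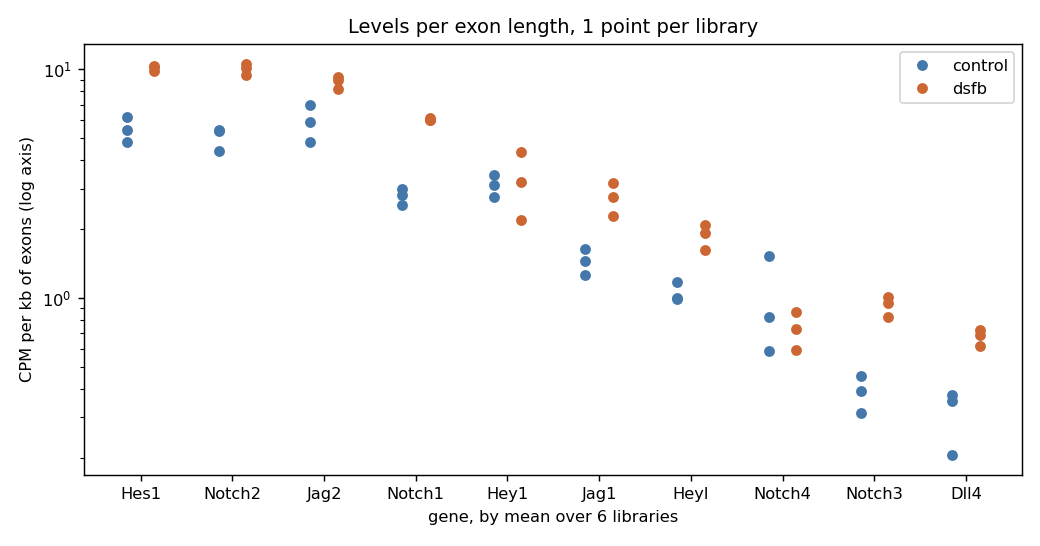
Level per exon length (CPM per kilobase of merged exons, log axis) of the 10 genes, ordered by their mean, with 1 point per library. Hes1, Notch2 and Jag2 lead in both groups (5.07 to 5.89 in control and 8.81 to 10.1 in dsfb) and Dll4 is lowest (0.311 and 0.676).

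Ratios within a library do not depend on how libraries are scaled to each other. Per exon length Notch2 made up 56.1, 58.6 and 50.1% of the 4 receptors in control and 55.1, 56.7 and 57.9% in dsfb, overlapping ranges. Notch1 made up 31.2, 30.3 and 29.1% in control and 35.0, 34.3 and 32.8% in dsfb, and Notch4 made up 8.61, 6.28 and 17.3% in control and 4.26, 3.33 and 4.72% in dsfb. The shares of Notch1 and Notch4 did not overlap between the groups, in opposite directions, while those of Notch3 did (3.59 to 4.88% and 4.49 to 5.67%). The 4 shares are parts of a whole, so a change in any of them moves the others. Notch2 stood at 1.80, 1.93 and 1.72 times Notch1 in control and at 1.57, 1.65 and 1.76 times in dsfb, overlapping ranges. Jag2 stood at 3.60, 3.33 and 5.56 times Jag1 in control and at 3.27, 3.60 and 2.91 times in dsfb. Hes1 stood at 1.99, 1.57 and 1.74 times Hey1 in control and at 2.34, 3.23 and 4.48 times in dsfb, so the balance of these targets was shifted toward Hes1 in every dsfb library. These ratios are given without a test.

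Set against Sertoli markers, the Notch genes had values near 0 or below. With each library scaled to its summed Sertoli markers, of which Clu alone supplied 48.6 to 55.3%, 0 members were higher and 2 were lower, Notch4 (log2 -1.52, edgeR adjusted p = 0.0187) and Hey1 (log2 -0.98, adjusted p = 0.0153). The other 8 lay between -0.49 for Jag2 (adjusted p = 0.0758) and 0.22 for Notch3 (adjusted p = 0.392). Under this scaling 1.37% of all tested genes were higher and 63.4% lower, and the median of all genes moved by -1.05. With the libraries scaled to the summed endothelial markers Notch1 (log2 0.55, edgeR adjusted p = 0.00473), Notch2 (0.42, adjusted p = 0.029) and Notch3 (0.69, adjusted p = 0.041) were higher and Notch4 was lower. There 8.08% of all tested genes were higher and 48.8% lower, and the median of all genes moved by -0.57. The endothelial sum includes Sox17, which fell, and Robo4, which rose most among the listed endothelial markers. Control replicate 3, the highest library for Notch4, was in both marker-scaled fits, and neither was tried without it.

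**Figure D4:**
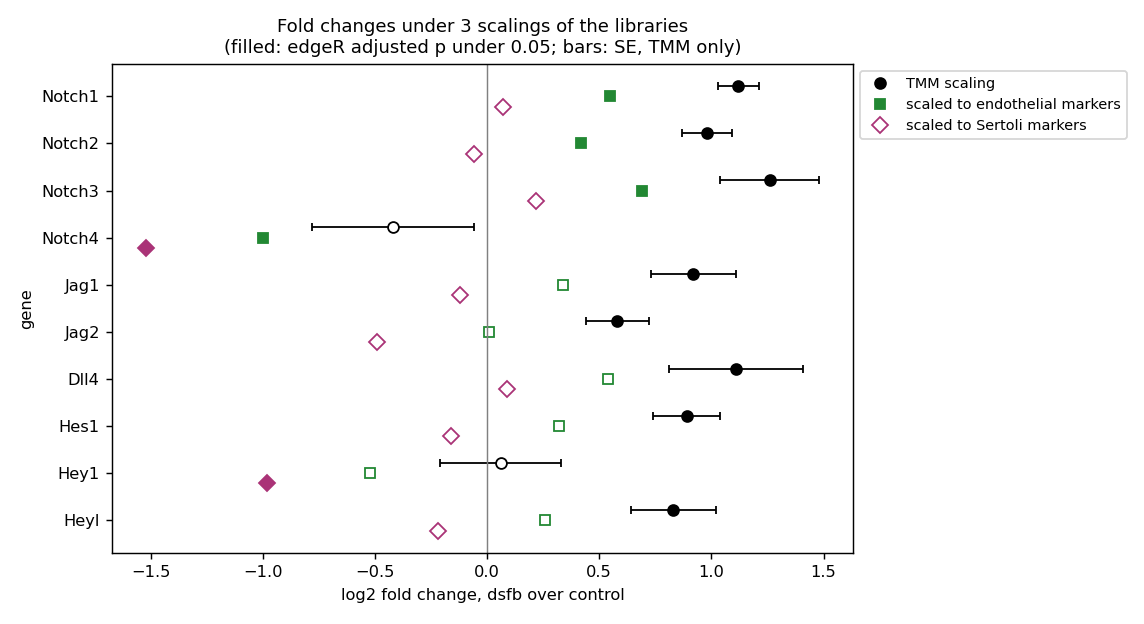
Log2 fold change of each Notch gene, dsfb over control, with libraries scaled by TMM (black, bars give the SE), to endothelial markers (green) and to Sertoli markers (purple); filled symbols passed the test. With TMM scaling 8 genes passed as higher, with endothelial markers 3 passed as higher and Notch4 as lower, and with Sertoli markers Notch4 and Hey1 passed as lower. All fits shown include control replicate 3, the highest library for Notch4.

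The other genes of the pathway moved in both directions. Of 63 listed genes 59 were tested with TMM scaling, 29 rose, 15 fell and 15 did not pass, with a median log2 fold change of 0.46. Over all tested genes 30.7% were called higher and 36.2% lower with TMM scaling, which is also the background for each role below. With Sertoli scaling 2 of the 59 were higher and 32 lower, against 1.37% and 63.4% of all tested genes. With endothelial scaling 10 were higher and 20 lower, against 8.08% and 48.8% of all tested genes. Of the other ligands Dll3, which acts mainly inside the cell, fell by 1.51 (SE 0.19, edgeR adjusted p = 0.000301), from 18.6 to 26.1 CPM in control to 6.77 to 8.21 CPM in dsfb. Dlk1 and Dlk2, ligand-like membrane proteins, rose, by log2 1.09 (SE 0.39, edgeR adjusted p = 0.0387) and 2.08 (SE 0.45, adjusted p = 0.00465), the former call being lost without control replicate 1, dsfb replicate 1 or dsfb replicate 2 (adjusted p = 0.0602, 0.126 and 0.107). Dlk2 was at 0.124 to 0.279 CPM in control and overlaps a gene on the opposite strand. Neither Dlk1 nor Dlk2 passed with Sertoli scaling (log2 0.08 and 1.06, edgeR adjusted p = 0.868 and 0.0737).

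Enzymes that add sugars to the receptors rose or did not pass. Of 6 tested 4 rose and 0 fell by edgeR, with 0 lower at an unadjusted p under 0.05 and 0 lower by DESeq2. Lfng, the Fringe enzyme that tunes which ligands a receptor answers to, rose from 1.16 to 1.44 CPM in control to 3.71 to 4.21 CPM in dsfb (log2 1.61, SE 0.23, edgeR adjusted p = 0.000535). Pofut1, which adds the fucose that Fringe extends, rose by log2 0.91 (SE 0.10), and Poglut1, which adds glucose, by 0.55 (SE 0.16, edgeR adjusted p = 0.0188). The call for Poglut1 was lost without dsfb replicate 1 or 2 (adjusted p = 0.0795 and 0.0538) and with no filter on low counts. With Sertoli scaling Poglut1 passed as lower (log2 -0.48, edgeR adjusted p = 0.0162), and Pofut1 had a value of -0.14 and did not pass (adjusted p = 0.329). Lfng had a value of 0.57 under that scaling and did not pass either (edgeR adjusted p = 0.0513).

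The proteases were divided: 7 of 10 rose and 3 fell. Furin, which cleaves the receptor on its way to the surface, rose from 60.9 to 70.7 CPM in control to 161 to 196 CPM in dsfb (log2 1.44, SE 0.11, edgeR adjusted p = 2.33e-05). It also passed as higher with Sertoli scaling (log2 0.40, edgeR adjusted p = 0.0219). Psenen, a gamma-secretase subunit gene, fell by 0.96 (SE 0.09, edgeR adjusted p = 8.37e-05), from 55.0 to 59.1 CPM in control to 27.8 to 30.2 CPM in dsfb. Furin and Psenen overlap genes on the opposite strand. Among 12 ubiquitin ligases and endocytic regulators 4 rose and 5 fell. Dtx1 and Dtx4, Deltex ligases that act on the receptor, rose by log2 1.31 (SE 0.10) and 0.95 (SE 0.10), and Numbl, a relative of the Notch inhibitor Numb, by 1.11 (SE 0.13, edgeR adjusted p = 0.000252). With Sertoli scaling none of these passed: Dtx1 had a value of 0.25 (edgeR adjusted p = 0.165), Dtx4 of -0.09 (adjusted p = 0.442) and Numbl of 0.06 (adjusted p = 0.766).

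In the nuclear complex 4 of 9 tested genes rose and 1 fell. The acetyltransferase gene Kat2b and the coactivator gene Maml1 rose by log2 0.93 (SE 0.09) and 0.66 (SE 0.09), and Snw1, a coactivator that is also a splicing factor, fell by 1.03 (SE 0.09, edgeR adjusted p = 4.3e-05). With Sertoli scaling Maml1 passed as lower (log2 -0.39, edgeR adjusted p = 0.0237), and Kat2b had a value of -0.14 and did not pass (adjusted p = 0.432). Maml1 and Snw1 overlap genes on the opposite strand. Rbpj itself, named after its values were seen, was at 53.3 to 79.5 CPM in control and 89.6 to 101 CPM in dsfb and did not pass (log2 0.41, SE 0.16, edgeR adjusted p = 0.0521). Of 11 corepressor genes 5 rose and 5 fell: Cir1, which links RBPJ to deacetylases, fell by 1.65 (SE 0.11), Hdac1 by 1.05 (SE 0.08, edgeR adjusted p = 2.23e-05), and Tle1, a Groucho corepressor, rose by log2 0.82 (SE 0.09), but had a value of -0.23 with Sertoli scaling and did not pass (adjusted p = 0.0616). Cir1 and Tle1 overlap genes on the opposite strand.

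Of the remaining HES, HEY and target genes 4 of 7 were tested, 2 rose and 0 fell by edgeR (0 lower at an unadjusted p under 0.05 and 0 lower by DESeq2). Hes6, which counteracts HES1, rose from 5.53 to 5.79 CPM in control to 11.4 to 14.6 CPM in dsfb (log2 1.21, SE 0.18, edgeR adjusted p = 0.000748). It did not pass with Sertoli scaling (log2 0.15, edgeR adjusted p = 0.547). Nrarp, a Notch-induced inhibitor of the pathway that overlaps a gene on the opposite strand, passed narrowly (log2 0.85, SE 0.32, edgeR adjusted p = 0.044), a call lost without control replicate 2 (adjusted p = 0.142) or any dsfb library (0.077 to 0.143), and also lost with DESeq2 (adjusted p = 0.113) and with the replicate block (0.0638). Of the Sertoli genes that Notch is known to repress, Cyp26b1, which degrades retinoic acid, rose from 98.3 to 138 CPM in control to 231 to 269 CPM in dsfb (log2 1.14, SE 0.14, edgeR adjusted p = 0.000288), and did not pass with Sertoli scaling (log2 0.10, adjusted p = 0.447). Gdnf was at 4.61, 3.72 and 2.13 CPM in control and 6.20, 4.76 and 6.26 CPM in dsfb and did not pass (log2 0.72, SE 0.31, edgeR adjusted p = 0.0728).

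**Figure D5:**
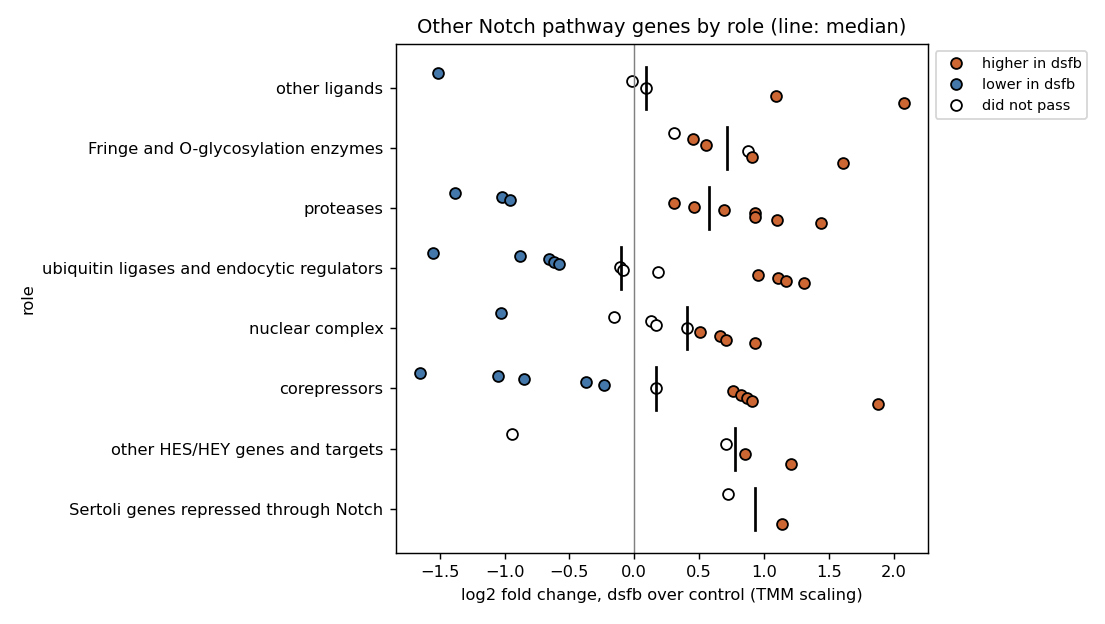
Log2 fold change, dsfb over control, of the 59 tested genes of the rest of the Notch pathway by role, with TMM scaling; orange points were called higher, blue points lower and white points did not pass, and the line is the median of each role. The 29 rises and 15 falls fall on both sides of 0 in the ligands, proteases, ubiquitin ligases, nuclear complex and corepressors. With Sertoli scaling 2 were higher and 32 lower, against 1.37% and 63.4% of all tested genes.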

How the data were processed

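Polyadenylated RNA of 6 testis samples, 3 control and 3 dsfb, was sequenced after TRIzol extraction and NEBNext Ultra library preparation, per the labels. The authors deposited raw gene counts (unit counts), with reads aligned by STAR 2.6.0 to mm10 per the submitters' processing notes. The sources used here do not give the tool, annotation or strand setting with which reads were assigned to genes. Values of genes that overlap on opposite strands are therefore uncertain; of the members these are Notch1, Notch3 and Dll4, while Notch2 shares exonic bases with a gene on its own strand. Depth was 15.3 to 27.7 M counts per library. Symbols, positions and merged exon lengths came from GENCODE M21, in which 55227 of 55487 identifiers were found; the other 260 held 0.0238% of counts and stayed in the fit.

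Counts were fitted with edgeR 4.0.16 in R 4.3.3 (filterByExpr by group, TMM, estimateDisp, glmQLFit, glmQLFTest, group as the only term). Benjamini-Hochberg adjustment covered all 19826 tested genes, and the threshold was 0.05. CPM use TMM-scaled library sizes, and the SE is the size of the log2 fold change divided by the root of the F statistic. Members and lists were chosen with earlier results of these data known. The text names all 10 members, Hormad1, Hormad2 and, per pathway role, up to 3 passing genes with the smallest p; a result that this rule takes is not reported here. Alternatives were other scalings (RLE, upper-quartile, library size alone, summed Sertoli or endothelial markers), other filters (1 read in all, or a mean of at least 1 CPM), DESeq2 1.42.0, limma-voom (limma 3.58.1), a replicate block and leaving out each library. Libraries of a group differed by more than sampling noise (chi-square per degree of freedom 3.82 to 65). Promoter sequences are RefSeq's.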

Additional observations from a re-analysis of the deposited data

How the results depend on the processing

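Without each library in turn, the members gave 8 to 8 rises and 0 to 0 falls, the rest of the pathway 23 to 30 rises and 13 to 15 falls, and all genes 4940 to 6596 rises and 6889 to 7621 falls. The log2 fold change of Notch4 lay between -0.70 and 0.03 and that of Hey1 between -0.20 and 0.29 (-0.04 without control replicate 3). RLE scaling and DESeq2 gave Hey1 -0.02, and no filter beyond 1 read gave -0.0022. With Sertoli-scaled libraries the calls were 0 higher and 2 lower for the members, 2 and 32 for the pathway, and 271 and 12570 for all genes. Values that turned sign there were -0.06 for Notch2, -0.12 for Jag1, -0.49 for Jag2, -0.16 for Hes1, -0.98 for Hey1, -0.22 for Heyl, -0.14 for Pofut1, -0.48 for Poglut1, -0.09 for Dtx4, -0.14 for Kat2b, -0.39 for Maml1, -0.23 for Tle1 and -0.19 for Nrarp. With endothelial-scaled libraries the calls were 3 higher and 1 lower for the members, 10 higher and 20 lower for the pathway and 1601 higher and 9682 lower for all genes, with -0.52 for Hey1 and -0.02 for Poglut1. Upper-quartile scaling and library size alone moved the median of all genes by 0.28 and 0.40 and the share of higher calls from 45.9% to 57.2% and 60.9%, no filter beyond 1 read moved them by -0.30 and to 35.5%, and under these 3 settings the members' calls stayed at 8 higher and 0 lower. Scaling by other factors shifts all genes together by construction, whereas the looser filter adds genes to those tested. It was not settled whether the replicate numbers pair the samples. Correlations of same-numbered libraries, taken on deviations from the group means, were 0.0709, 0.0607 and 0.116. Each was the highest for its control library and for its dsfb library, a hint from the data only. With the replicate block the members had 8 rises and 0 falls and all genes 6228 rises and 7203 falls. Dll4, with 17 to 55 reads per library, is the member whose precision is most limited by depth.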
